A study of Mus musculus with 7 samples.

Results

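The genes described are the axon guidance ligands and receptors of the mouse: semaphorins, plexins, neuropilins, ephrins, Eph receptors, netrins, Unc5 receptors, slits and Robo receptors. They were selected on their symbol and on detection, as genes of these families with a count above 0 in at least 3 of the 7 libraries. Of 27179 genes in the table, 69 had a symbol of these families and 43 met the count rule. Another 9 had no count in any library and 17 had one in 1 or 2 libraries. Of the 43, 42 encode a ligand or receptor, and Plxna4os1 is a non-coding transcript within the Plxna4 locus. Polyadenylated RNA was sequenced from alveolar macrophages, which patrol the airspaces of the lung and were isolated by flow cytometry. All donors and recipients were of the C57BL/6 background, and all recipients (Ly5.1) had been lethally irradiated. The 4 wild type libraries came from recipients of marrow that was 90% wild type (Ly5.2), and the 3 Suz12 cKO libraries from recipients of marrow that was 90% Suz12 conditional knockout (Ly5.2). Both kinds of marrow held 10% wild type Ly5.1 competitor cells. Not given in the sources used here are the age of the mice, the Cre line, the deleted exons, whether competitor cells were gated out and whether a library is 1 mouse or a pool. The design text calls the libraries biological replicates.

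Guidance molecules were named for steering growing axons, and most are also used by vascular, immune and epithelial cells. Semaphorins signal through plexins, with neuropilins as co-receptors for the secreted class, and plexins act on small GTPases and the cytoskeleton. Ephrins are held in the membrane and bind Eph receptor tyrosine kinases on the neighbouring cell, with signals passing both ways. Netrins are laminin-related secreted proteins whose receptors include the Unc5 family, and slits are secreted ligands of Robo receptors. Suz12 is a core subunit of polycomb repressive complex PRC2, which trimethylates histone H3 at lysine 27, often at CG-rich promoters of developmental genes. The comparison of Suz12 cKO with wild type macrophages asks how transcripts differ between these genotypes.

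Promoter windows are shown for 4 of the guidance genes that rose in Suz12 cKO, as the windows of a receptor, a netrin, an ephrin and a semaphorin that range from CG-rich to CG-poor. They were chosen after the values were seen. Each is the 300-base RefSeq window (GRCm38.p6) around a transcript start, printed 5′ to 3′ on the strand of the gene, with the dinucleotide CG in capitals. CG reads the same on both strands.

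Unc5a (chr13:54949161-54949460, plus strand, 37 CG): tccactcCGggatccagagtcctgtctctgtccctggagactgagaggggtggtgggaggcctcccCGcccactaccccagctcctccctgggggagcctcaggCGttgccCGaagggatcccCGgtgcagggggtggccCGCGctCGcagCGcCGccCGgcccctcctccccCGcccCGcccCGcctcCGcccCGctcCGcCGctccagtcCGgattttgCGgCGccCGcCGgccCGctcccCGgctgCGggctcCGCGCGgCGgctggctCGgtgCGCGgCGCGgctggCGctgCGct
Ntn4 (chr10:93640799-93641098, plus strand, 31 CG): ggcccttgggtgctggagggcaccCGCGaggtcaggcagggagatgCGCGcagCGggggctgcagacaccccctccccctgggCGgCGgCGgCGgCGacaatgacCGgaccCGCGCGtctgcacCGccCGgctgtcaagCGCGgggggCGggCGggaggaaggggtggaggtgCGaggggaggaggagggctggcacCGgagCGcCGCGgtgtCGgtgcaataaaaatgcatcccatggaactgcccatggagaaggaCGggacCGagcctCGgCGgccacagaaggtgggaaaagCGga
Efna5 (chr17:62881268-62881567, minus strand, 38 CG): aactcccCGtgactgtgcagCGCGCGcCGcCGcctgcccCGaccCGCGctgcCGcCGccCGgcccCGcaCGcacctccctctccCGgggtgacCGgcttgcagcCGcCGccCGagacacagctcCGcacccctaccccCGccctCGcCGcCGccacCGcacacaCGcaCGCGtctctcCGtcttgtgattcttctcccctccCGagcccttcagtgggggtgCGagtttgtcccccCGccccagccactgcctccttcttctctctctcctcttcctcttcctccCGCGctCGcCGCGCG
Sema4d (chr13:51748761-51749060, minus strand, 3 CG): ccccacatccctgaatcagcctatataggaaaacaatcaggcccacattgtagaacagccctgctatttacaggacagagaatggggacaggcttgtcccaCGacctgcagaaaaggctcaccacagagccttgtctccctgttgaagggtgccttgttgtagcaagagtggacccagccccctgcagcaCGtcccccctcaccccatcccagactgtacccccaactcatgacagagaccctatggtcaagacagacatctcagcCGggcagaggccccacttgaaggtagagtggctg

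The Unc5a, Ntn4 and Efna5 windows held 37, 31 and 38 CG, and the Sema4d window held 3. The Sema4d window is the first of 3 listed for that gene. Both it and the Unc5a window lie at a start within the annotated gene rather than at its outer end, so the CG content of the outer promoters is not described by them. Of the 43 members, 37 had a window. Among the 11 with a window that were called higher in Suz12 cKO the median was 18 CG (range 3 to 38), and 4 held 30 or more (36.4%). Among the 22 tested members with a window that were not called the median was 23, and 7 held 30 or more (31.8%). The median over 10818 tested genes with a window was 20, with 21.7% at 30 or more. At least 1 CG was present in 94.2% of all 27025 genes with a window. By the first window listed for each gene, the called members thus spanned nearly the whole range of CG content of the list. CG-poor windows were at Sema4d (3), Sema3g (8), Epha2 (10) and Sema3e (11), and CG-rich ones at Plxnb1 (36), Unc5a (37) and Efna5 (38). Further windows of Sema4d, Sema6d and Plxnb2 were not counted.

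Counts per library summed to between 48104653 and 79281431. Suz12 itself was at 63.9 ± 8.92 counts per 1e6 counts of the library after scaling (CPM) in wild type and 20.3 ± 4.53 CPM in Suz12 cKO (SD, n = 4 and n = 3), a log2 fold change of -1.65 (SE 0.18, adjusted p = 0.00134 by edgeR). Markers of the labelled cell type were abundant. The 15 alveolar macrophage markers summed to between 26038 and 29678 CPM in wild type and between 31124 and 35274 CPM in Suz12 cKO. Chil3 made up most of the sum (17223 ± 1420 CPM in wild type, n = 4). Of the 15, 8 were called higher in Suz12 cKO (53.3%, against 6.28% of all tested genes). Plet1 was the 1 called lower (6.67%, against 4.02%). Summed haemoglobin was highest in Suz12 cKO replicates 1 and 2 (192 and 155 CPM) and wild type replicate 2 (56.6 CPM), with 2.29 to 5.17 CPM in the remaining 4 libraries. These 3 libraries are called high in haemoglobin RNA, a split above 20 CPM known from earlier results of these data, and results are also given within each side of it.

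Guidance genes were more often higher than lower in Suz12 cKO macrophages. Of 39 members that passed the filter on low counts, 12 rose and 0 fell at an adjusted p under 0.05 (edgeR's quasi-likelihood test, Benjamini-Hochberg adjustment over 14436 genes). That is 30.8% called higher, where 6.28% of all tested genes were called higher, 4.02% lower and 10.3% in either direction. The genes that rose were the semaphorins Sema3e, Sema3g, Sema4d and Sema6d, the plexins Plxna1, Plxna3, Plxnb1 and Plxnb2, the ephrin Efna5, the Eph receptor Epha2, the netrin Ntn4 and the netrin receptor Unc5a. The median log2 fold change of the 39 was 0.75, against 0.00 over all tested genes, and 34 of 39 were above 0, against 50.4% of all genes. At an unadjusted p under 0.05, 18 were higher and 1, Sema6b, was lower. The share of all genes under that unadjusted limit was not counted, so no count at it is read as a result. DESeq2 called 17 higher and 0 lower, where it called 1393 of all genes higher and 848 lower. Sema6c, Efna5 and Ephb6 reached the filter's minimum in Suz12 cKO libraries alone and had to differ, so they lend no support. Without them 11 of 36 members were called higher (30.6%), 31 were above 0, 15 were higher at an unadjusted p under 0.05, and the median was 0.73. In bulk RNA, fewer cells of a type and less RNA per cell cannot be told apart. Endothelial markers summed to 98.2 to 107 CPM in wild type and 79.3 to 114 CPM in Suz12 cKO, mostly from Vwf. Emcn had no count. Without Vwf the sums were 0.896, 19.2, 0.272 and 0.289 CPM in wild type and 5.90, 10.2 and 3.36 CPM in Suz12 cKO. Fibroblast and smooth muscle markers summed to 2.47 to 16.4 CPM in wild type and 31.4 to 42.0 CPM in Suz12 cKO. Pdgfra made most of the latter (33.4 ± 3.71 CPM, n = 3) and was the 1 of 5 called, while Tcf21 had no count and Col1a2 was at or under 0.335 CPM in Suz12 cKO. Neutrophil markers were at 65.3 to 90.6 CPM in wild type and 119 to 165 CPM in Suz12 cKO with 2 of 4 called higher and Ly6g at 0, and neural and glial markers were at 0.845 to 1.33 and 1.78 to 3.96 CPM. Platelet markers summed to 1.90 to 9.16 and 10.3 to 17.9 CPM, and T and NK cell markers to 0.573 to 1.23 and 1.16 to 4.80 CPM, in wild type and Suz12 cKO. The part of these cells in the results was not tested.

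**Figure D1:**
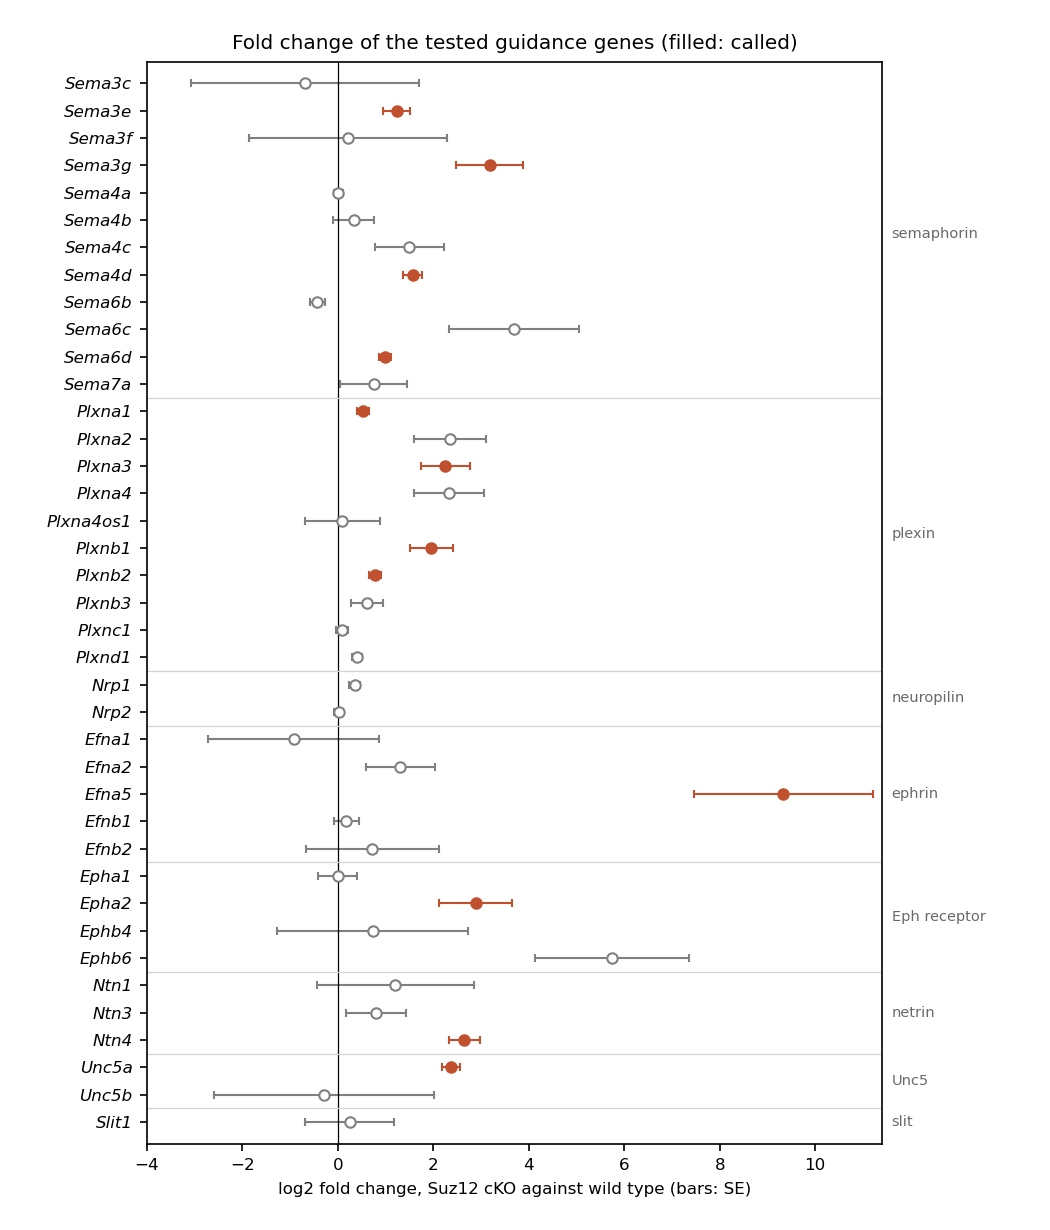
Log2 fold change of each of the 39 tested guidance genes in Suz12 cKO against wild type (x axis), grouped by family, with bars for the standard error. The 12 filled points are the genes called higher, 34 points lie to the right of 0, and the Efna5 value depends on how its absence in wild type is fitted.

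The number of members called depended on single libraries. Leaving out Suz12 cKO replicates 1 to 3 in turn gave 7, 6 and 7 calls, and leaving out wild type replicates 1 to 4 gave 7, 17, 5 and 9. Ntn4, Unc5a, Sema4d, Sema6d and Plxnb2 were called under each of 15 alternatives in scaling, tool, filter, terms and libraries, while the other 7 lost the call in at least 1 of them.

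The ligand and the receptor with the smallest p-values among the members belonged to the netrin and Unc5 families. Whether their products act as a pair was not tested. Ntn4 encodes netrin-4, a basement membrane netrin (chromosome 10, 93641049 to 93745972, GRCm38.p6). Suz12 cKO replicates 1 to 3 held 43.9, 31.6 and 45.8 CPM, and wild type replicates 1 to 4 held 8.23, 8.85, 5.25 and 3.36 CPM. Each Suz12 cKO library was far above each wild type library, and the ranges did not overlap. The mean was 40.4 ± 7.70 against 6.42 ± 2.57 CPM (n = 3 and n = 4), a log2 fold change of 2.65 (SE 0.32, adjusted p = 0.00195 by edgeR). It was 3.01 within the 4 libraries low in haemoglobin RNA and 2.09 within the 3 high ones (adjusted p = 0.00517 and 0.00350).

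Unc5a encodes a netrin receptor with a cytoplasmic death domain (chromosome 13, 54945151 to 55006018). Its level was 22.8, 21.3 and 18.3 CPM in the Suz12 cKO libraries, against 3.44, 3.59, 4.84 and 4.27 CPM in the wild type ones. Values were tight within each genotype and far apart between them. The means were 20.8 ± 2.32 and 4.03 ± 0.646 CPM, and the log2 fold change of 2.37 (SE 0.19) had the smallest adjusted p of the 39 members, 4.6e-04 by edgeR. It was 2.11 within the libraries low in haemoglobin RNA and 2.62 within the high ones. Per kilobase of exon, Ntn4 averaged 16.8 CPM and Unc5a 5.23 CPM in Suz12 cKO, against 2.66 and 1.01 CPM in wild type.

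The other members of these 2 families were low and not called. Ntn3 was at 1.33 ± 0.363 CPM in wild type and 2.31 ± 1.64 CPM in Suz12 cKO (log2 fold change 0.80, adjusted p = 0.506). Ntn1, the best known netrin, had a log2 fold change of 1.20 with a 95% interval from -2.54 to 4.94 and no count in wild type replicates 3 and 4. Unc5b, a netrin receptor of vascular endothelium, had 17 and 28 counts in Suz12 cKO replicates 1 and 2, 69 in wild type replicate 2 and 0 in the other 4 libraries. Those are the 3 libraries high in haemoglobin RNA.

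Among the semaphorins, 4 of 12 tested rose, and the median log2 fold change was 0.87. Sema4d, known as CD100 on lymphocytes and a ligand of Plxnb1 and Plxnb2, lies on chromosome 13 (51685529 to 51793678). It stood at 49.6, 60.2 and 83.3 CPM in the Suz12 cKO libraries, against 21.9, 26.4, 21.6 and 16.8 CPM in the wild type ones. All 3 Suz12 cKO libraries were above all 4 wild type libraries, with replicate 3 the highest. The means were 64.4 ± 17.3 and 21.6 ± 3.92 CPM (log2 fold change 1.57, SE 0.20, adjusted p = 0.00238 by edgeR). Within the libraries low in haemoglobin RNA the log2 fold change was 2.04, and within the high ones 1.06.

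Sema6d, a transmembrane semaphorin that binds Plxna1, lies on chromosome 2 (124089943 to 124667789). It was at 49.8, 51.0 and 45.3 CPM in the Suz12 cKO libraries, against 26.3, 28.1, 23.0 and 20.6 CPM in the wild type ones. The groups were tight and did not overlap, with means of 48.7 ± 3.03 and 24.5 ± 3.32 CPM. The log2 fold change was 0.99 (SE 0.13, adjusted p = 0.00247 by edgeR).

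Of the secreted class, Sema3e, a ligand that binds Plxnd1 without a neuropilin, lies on chromosome 5 (14025276 to 14256689). It was at 16.4, 21.9 and 24.3 CPM in the Suz12 cKO libraries, against 11.6, 11.1, 7.63 and 5.26 CPM in the wild type ones. The lowest Suz12 cKO library was above the highest wild type library, and the log2 fold change was 1.23 (SE 0.28, adjusted p = 0.0273 by edgeR). The call was lost without Suz12 cKO replicate 2 or 3 or wild type replicate 3 (adjusted p = 0.0936, 0.0871 and 0.0782) and within the libraries high in haemoglobin RNA (log2 fold change 0.79, adjusted p = 0.142).

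Sema3g, an endothelial semaphorin that acts through Nrp2, lies on chromosome 14 (31217873 to 31230352). Its level was 24.2, 12.5 and 3.95 CPM in the Suz12 cKO libraries, against 3.07, 0.689, 0.647 and 1.53 CPM in the wild type ones. The 3 Suz12 cKO libraries spread widely, and replicate 3 was close to the highest wild type library. The log2 fold change was 3.18 (SE 0.70, adjusted p = 0.0235 by edgeR). Of the 3 Suz12 cKO libraries, the 2 with the higher level are those high in haemoglobin RNA, while wild type replicate 2, also high in it, was among the lowest. Within the libraries low in haemoglobin RNA the log2 fold change was 1.16 (adjusted p = 0.442), and within the high ones 4.73 (adjusted p = 0.00159), and with a haemoglobin term the adjusted p was 0.0989. The call was also lost without Suz12 cKO replicate 1 or 2 or wild type replicate 3 or 4 (adjusted p = 0.104, 0.0653, 0.0626 and 0.0611).

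The most abundant semaphorin was not called. Sema4a, a class 4 semaphorin of antigen-presenting cells, averaged 247 ± 8.19 CPM in wild type and 249 ± 19.1 CPM in Suz12 cKO. Its log2 fold change was 0.01 with a 95% interval from -0.18 to 0.21, and at 71.6 CPM per kilobase it had the highest level per length of all members in wild type. Sema6b, a transmembrane semaphorin that binds class A plexins, was the only member whose Suz12 cKO range lay wholly below the wild type range, against 11.5% of all tested genes. It was at 14.0, 13.5 and 18.6 CPM in the Suz12 cKO libraries, against 23.0, 20.1, 19.9 and 20.2 CPM in the wild type ones. Its log2 fold change was -0.44 (95% interval -0.79 to -0.08, adjusted p = 0.123 by edgeR), and it was called lower when Suz12 cKO replicate 3 was left out. Ranges lay wholly above wild type in 18 of the 39 tested members, and in 15 of the 36 that reached the filter's minimum in a wild type library, against 14.1% of all tested genes.

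Sema7a, a membrane-anchored semaphorin that binds Plxnc1, varied widely within both genotypes. It was at 2.30, 6.08 and 13.5 CPM in the Suz12 cKO libraries, against 0.934, 7.09, 3.64 and 5.69 CPM in the wild type ones, and the ranges overlapped (adjusted p = 0.585). Sema4c was at 4.36, 5.24 and 5.72 CPM in the Suz12 cKO libraries and at 4.89 CPM in wild type replicate 2, where the other wild type libraries held 0.619 to 1.02 CPM. That single wild type library lay within the Suz12 cKO range, and Sema4c was called without that library and within the libraries low in haemoglobin RNA. Sema6c was under 1 CPM in every library, with a log2 fold change of 3.69 (adjusted p = 0.132). Uncalled members outside the naming rule (Sema3f, Sema4c, Sema4g, Sema6b, Sema6c, Sema7a, Plxna2, Plxna4, Plxnb3, Plxnc1, Efna1, Efnb2, Ephb4, Ephb6 and Ntn1) are described because of their values, which had been seen.

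**Figure D2:**
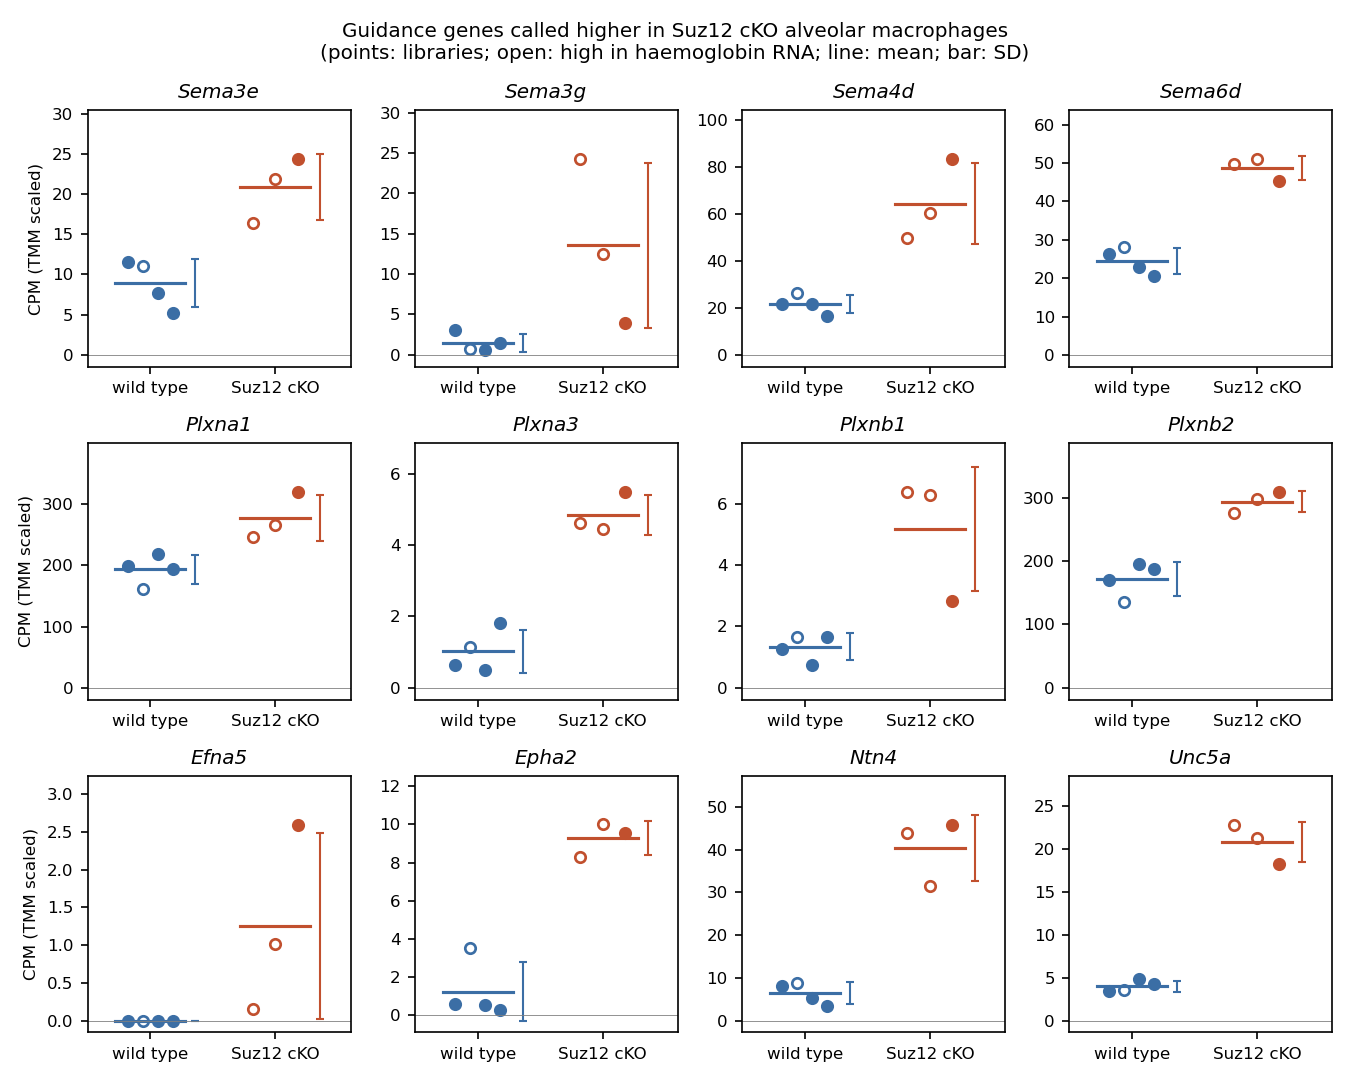
CPM in each library (y axis, one panel per gene) of the 12 guidance genes called higher, with wild type in blue (n = 4) and Suz12 cKO in red (n = 3), horizontal lines for means, vertical bars for SD, and open points for libraries high in haemoglobin RNA. The groups do not overlap in any panel, and the Suz12 cKO points spread most widely in Sema3g and Efna5.

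Of the 9 plexins tested, the semaphorin receptors, 4 rose, and all 9 log2 fold changes were above 0 (median 0.77). Plxnb2, a widely expressed class B plexin, lies on chromosome 15 (89155546 to 89182018). It was at 276, 298 and 309 CPM in the Suz12 cKO libraries, against 171, 135, 195 and 187 CPM in the wild type ones. All 3 Suz12 cKO libraries lay well above the highest wild type library. The log2 fold change was 0.77 (SE 0.13, adjusted p = 0.00712 by edgeR), from means of 294 ± 17.0 and 172 ± 26.5 CPM. Within the libraries low and high in haemoglobin RNA it was 0.73 and 1.08.

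Plxna1, the receptor of Sema6d, lies on chromosome 6 (89316313 to 89362613). It stood at 247, 266 and 319 CPM in the Suz12 cKO libraries, against 200, 162, 218 and 194 CPM in the wild type ones. The ranges were close but did not overlap, and the log2 fold change was 0.52 (SE 0.13, adjusted p = 0.0350 by edgeR). It was not called without Suz12 cKO replicate 1, 2 or 3 (adjusted p = 0.0583, 0.0896 and 0.121) or without wild type replicate 1, 3 or 4 (0.0769, 0.0503 and 0.0837).

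Plxna3 and Plxnb1 rose from low levels. Plxna3, a class A plexin on chromosome X (74328290 to 74344689), was at 4.62, 4.45 and 5.49 CPM in the Suz12 cKO libraries, against 0.635, 1.13, 0.494 and 1.81 CPM in the wild type ones. The log2 fold change was 2.25 (SE 0.50, adjusted p = 0.0246 by edgeR). Without Suz12 cKO replicate 1, 2 or 3 or wild type replicate 1 or 3 its adjusted p was 0.0781, 0.0744, 0.0746, 0.0637 and 0.0569, and within the libraries low and high in haemoglobin RNA it was 0.118 and 0.0555. Plxnb1, the high-affinity receptor of Sema4d, lies on chromosome 9 (109093849 to 109119915). It was at 6.38, 6.29 and 2.83 CPM in the Suz12 cKO libraries, against 1.27, 1.66, 0.732 and 1.67 CPM in the wild type ones. Suz12 cKO replicate 3 lay nearer to wild type than the 2 libraries high in haemoglobin RNA. The log2 fold change was 1.95 (SE 0.45, adjusted p = 0.0287 by edgeR), and 1.19 within the libraries low in haemoglobin RNA (adjusted p = 0.414), and with a haemoglobin term the adjusted p was 0.0668. Without Suz12 cKO replicate 1 or 2 or wild type replicate 1 or 3 the adjusted p was 0.120, 0.118, 0.0732 and 0.0668.

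Plxna2 and Plxna4 had folds of the same size as Plxna3 without passing the threshold. Plxna2 was at 2.30, 4.20 and 4.07 CPM in the Suz12 cKO libraries, against 0.996, 0.985, 0.681 and 0.0825 CPM in the wild type ones (log2 fold change 2.35, adjusted p = 0.0846). Plxna4 was at 7.34, 5.50 and 6.88 CPM against 0.597, 3.41, 0.954 and 0.268 CPM (log2 fold change 2.33, adjusted p = 0.0846). In both, the 2 genotypes did not overlap, and DESeq2 called both. Whether reads of Plxna4os1, at 0.940 ± 0.448 and 1.0 ± 0.576 CPM, were told apart from those of Plxna4 is uncertain, since no source used here gives the strand setting of the counting.

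Plxnd1, the receptor of Sema3e and the most abundant plexin per length, was at 393, 320 and 400 CPM in the Suz12 cKO libraries, against 255, 269, 288 and 316 CPM in the wild type ones. The ranges just failed to touch, and the log2 fold change was 0.40 (95% interval 0.14 to 0.65, adjusted p = 0.0577 by edgeR). It was called with DESeq2 (adjusted p = 0.00438), with a haemoglobin term (0.0325) and without Suz12 cKO replicate 2 (0.0492). Plxnc1, the receptor of Sema7a, averaged 176 ± 21.6 CPM in wild type and 187 ± 22.2 CPM in Suz12 cKO, a log2 fold change of 0.09 with a 95% interval from -0.19 to 0.37. Plxnb3 had 2.88 ± 0.529 and 4.41 ± 1.14 CPM (adjusted p = 0.307).

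The neuropilins, co-receptors of the secreted semaphorins, were both abundant, and neither passed the threshold with edgeR, while DESeq2 called Nrp1 (adjusted p = 0.0376). Nrp1 was at 186, 182 and 177 CPM in the Suz12 cKO libraries, against 116, 150, 169 and 137 CPM in the wild type ones. Its ranges did not overlap, and its log2 fold change was 0.35 (95% interval 0.07 to 0.63, adjusted p = 0.122). Nrp2 averaged 190 ± 4.26 and 192 ± 18.6 CPM, a log2 fold change of 0.01 with a 95% interval from -0.19 to 0.22.

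In the ephrin family 1 of 5 tested members, Efna5, was called higher. It reached the filter's minimum in Suz12 cKO libraries alone and so had to differ, and its call lends no support to a rise of the family. Efna5, a lipid-anchored ephrin, lies on chromosome 17 (62602957 to 62881317) and had no count in any of the 4 wild type libraries. In Suz12 cKO it had 10, 67 and 185 counts, or 0.158, 1.02 and 2.59 CPM. Transcripts were present in all 3 Suz12 cKO libraries at levels that differed widely among them. Against a floor of 3 counts over the wild type group, Efna5 was at least 109-fold higher in Suz12 cKO, a bound that covers counting error only. Suz12 cKO replicate 3 held most of the counts, and without it the bound was 49.5-fold. The edgeR adjusted p was 0.0340, and it was 0.0652 and 0.0521 without wild type replicate 3 or 4. Within the libraries high in haemoglobin RNA it was 0.248, and without Suz12 cKO replicate 2 or 3 or wild type replicate 1 the gene did not pass the filter.

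The ephrin with the highest level per length in wild type was Efnb1, a transmembrane ephrin, at 6.61 ± 1.68 CPM in wild type and 7.46 ± 0.871 CPM in Suz12 cKO (adjusted p = 0.763). Efna2 averaged 1.11 ± 0.604 and 2.74 ± 1.6 CPM with ranges that overlapped (adjusted p = 0.316). Efna1 was under 1 CPM in all libraries. Efnb2, an ephrin of arterial endothelium, was at 0.931, 2.73 and 1.68 CPM in the Suz12 cKO libraries and at 3.58 CPM in wild type replicate 2, where the other wild type libraries held 0 to 0.545 CPM.

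Of 4 Eph receptors tested, Epha2 rose. It is a receptor of the ephrin-A class known from epithelia, on chromosome 4 (141301221 to 141329384). Its level was 8.27, 10.0 and 9.57 CPM in the Suz12 cKO libraries, against 0.610, 3.54, 0.528 and 0.309 CPM in the wild type ones. The Suz12 cKO libraries lay together, and wild type replicate 2 stood above the other wild type libraries without reaching them. The log2 fold change was 2.89 (SE 0.77, adjusted p = 0.0462 by edgeR), and 4.28 and 1.37 within the libraries low and high in haemoglobin RNA (adjusted p = 0.00678 and 0.0470). Without Suz12 cKO replicate 1, 2 or 3 the adjusted p was 0.108, 0.126 and 0.102, without wild type replicate 1, 3 or 4 it was 0.113, 0.114 and 0.0792, and without wild type replicate 2 it was 2.8e-04 with a log2 fold change of 4.24. Epithelial markers summed to 221 to 346 CPM in wild type and 171 to 202 CPM in Suz12 cKO, with Cdh1 called higher and Epcam lower. Without Epcam the sums were 66.3, 156, 70.9 and 71.8 CPM in wild type and 142, 164 and 135 CPM in Suz12 cKO, so the direction of the sum rests on that gene, and the part of epithelial cells in the Epha2 level was not tested.

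Epha1 stood at 2.44 ± 0.846 CPM in wild type and 2.43 ± 0.259 CPM in Suz12 cKO. Ephb6, an Eph receptor without kinase activity, was at 1.09, 0.807 and 1.05 CPM in the Suz12 cKO libraries and at 0.0656 CPM in wild type replicate 2, with 0 counts in the other 3 wild type libraries. It was near absent in wild type and present in every Suz12 cKO library, with an edgeR adjusted p of 0.0572. It was called with DESeq2, with a haemoglobin term and without wild type replicate 2, but passed the filter through Suz12 cKO alone. Ephb4, a receptor of venous endothelium, had counts in the Suz12 cKO libraries (0.396 to 0.568 CPM) and in wild type replicate 2 alone of the wild type libraries (1.13 CPM).

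Slits and Robo receptors were nearly absent. Slit1 was at 0.438 ± 0.194 CPM in wild type and 0.520 ± 0.130 CPM in Suz12 cKO (adjusted p = 0.920). Robo4, an endothelial Robo, had 15 and 7 counts in Suz12 cKO replicates 1 and 2 and 13 in wild type replicate 2, and did not pass the filter, nor did Sema4f, Sema4g and Ephb3.

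Members just inside the count rule, with a count in exactly 3 libraries, were Efna5, Ephb3, Robo4, Sema3c, Sema4f and Unc5b. Sema3c had 46 and 49 counts in Suz12 cKO replicates 1 and 2 and 193 in wild type replicate 2, Ephb3 had 47 in Suz12 cKO replicate 1 and 24 and 6 in wild type replicates 2 and 3, and Sema4f had 7 in Suz12 cKO replicate 2 and 7 and 31 in wild type replicates 1 and 2. Just outside it were Epha3 (68 and 36 counts in Suz12 cKO replicates 1 and 2), Efnb3 (7 and 7 in wild type replicates 1 and 3), Robo2 (30 and 13 in replicate 1 of each genotype), Sema6a (35 in Suz12 cKO replicate 2, 15 in wild type replicate 3) and Slit3 (28 in Suz12 cKO replicate 1, 84 in wild type replicate 2). The genes without any count were Sema5b, Efna3, Epha5, Epha6, Epha7, Epha8, Ephb1, Robo3 and Unc5d, so 5 of the 9 were Eph receptors.

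A handful of genes held most of the guidance transcripts. Per kilobase of exon, the 43 members summed to 261, 271, 277 and 271 CPM in the wild type libraries and 368, 346 and 385 CPM in Suz12 cKO, so the groups did not overlap. The 8 members highest in wild type (Sema4a, Plxnd1, Plxnb2, Plxnc1, Nrp1, Nrp2, Plxna1 and Sema4b) made up 89.8 ± 1.51% of the sum in wild type and 80.7 ± 0.822% in Suz12 cKO (n = 4 and n = 3). The remaining 35 thus held a larger share in Suz12 cKO, though picking the 8 on their wild type level favours that direction. In order of level per length in wild type, Sema4a (71.6 CPM per kilobase) was followed by Plxnd1 (40.8) and then by Plxnb2 (26.3), Plxnc1 (25.0), Nrp1 (24.1), Nrp2 (23.4) and Plxna1 (21.4), which lay within their spread of each other. In Suz12 cKO the order was Sema4a (72.1), Plxnd1 (53.7) and Plxnb2 (44.9).

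**Figure D3:**
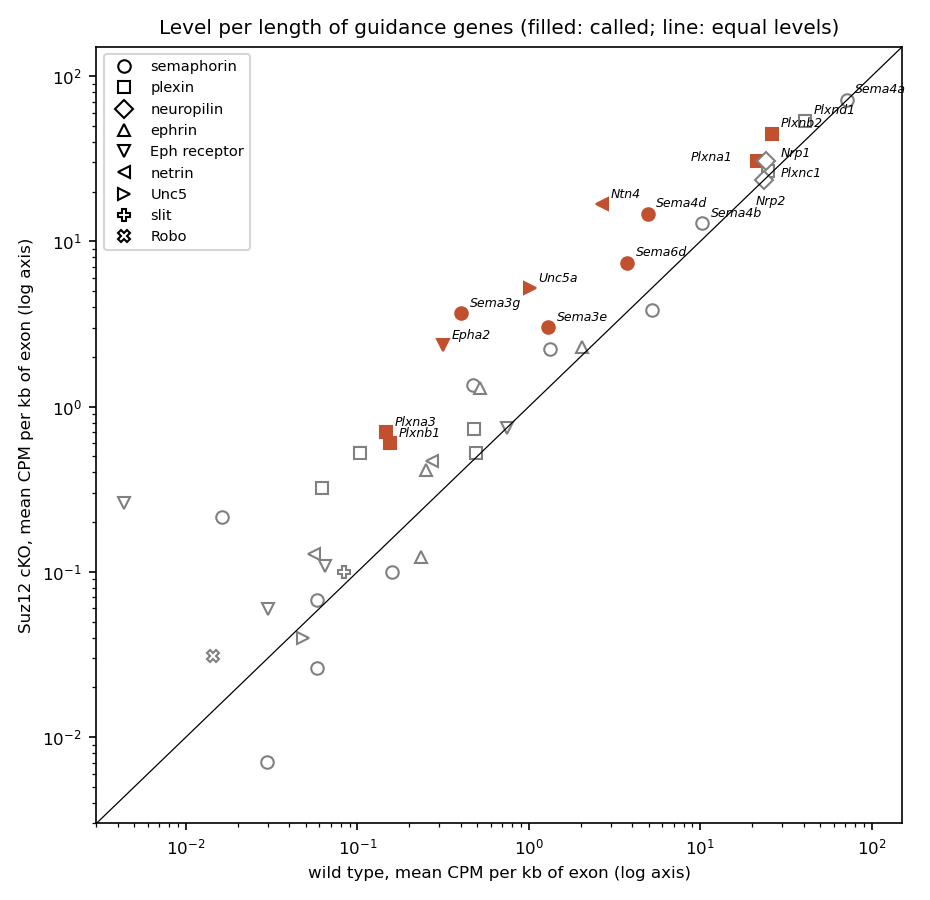
Mean level per kilobase of exon in wild type (x axis) and Suz12 cKO (y axis) on log axes, with a symbol for each family, filled where called. Efna5, at 0 in wild type, cannot be drawn on this scale. Sema4a and Nrp2 sit on the line of equal levels, and the called genes lie above it from Plxna3 at 0.147 to Plxnb2 at 26.3 CPM per kilobase in wild type.

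Calls were also counted by level of expression, taken as the mean over all 7 libraries. A rise in Suz12 cKO thus lifts a gene's own level. Of the 14 tested members with a mean of at least 10 CPM, 7 were called higher (50%), against 5.80% of 8881 genes at that level, of which 5.60% were called lower. Unc5a, Ntn4 and Sema3e, at 4.03, 6.42 and 8.88 CPM in wild type, reached this level only through Suz12 cKO. The 50% therefore depends in part on the calls themselves. Of the 14 at 1 to 10 CPM, 4 were called higher (28.6%, against 10.1% of all genes), and of the 11 under 1 CPM, 1 was (9.09%, against 2.74%). That 1 was Efna5, which had to differ, so nothing is read from the lowest level. Among the 29 members with a count in all 7 libraries, 11 were called higher (37.9%, against 6.37%). These shares describe a list picked with earlier results known, and no test was made of them.

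**Figure D4:**
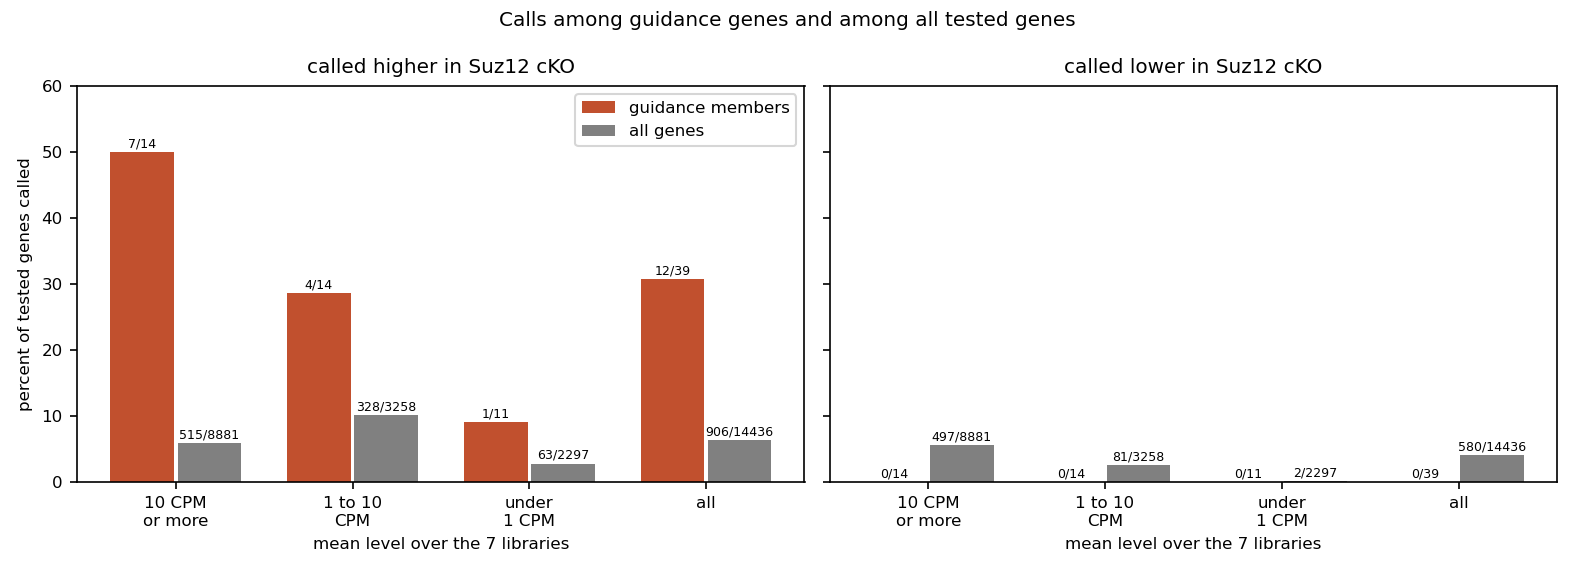
Percent of tested genes called higher (left) and lower (right) in Suz12 cKO by mean CPM over the 7 libraries, for guidance genes (red) and all genes (grey), with called and tested numbers above each bar. On the left the red bars stand at 50% and 28.6% for the upper levels, the lowest red bar is Efna5 alone, which passed the filter only through Suz12 cKO, and no guidance gene was called lower.

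Sema3c, Sema3f, Sema4b, Plxnb3 and Unc5b, and the untested Robo4, were each higher in all 3 libraries high in haemoglobin RNA than in all 4 others. That is 5 of 39 tested members (12.8%), near the 8.60% of all tested genes. Sema4b, the most abundant of them and a class 4 semaphorin, was at 54.8, 64.0 and 34.3 CPM in the Suz12 cKO libraries, against 30.2, 81.5, 26.2 and 24.2 CPM in the wild type ones. Wild type replicate 2 was the highest of all 7, and the genotypes overlapped (log2 fold change 0.33, adjusted p = 0.711 by edgeR). Without wild type replicate 2 the log2 fold change was 0.91 and Sema4b was called (adjusted p = 0.0198). Some markers of other lung cells were highest in the same libraries: 5 of 10 endothelial, 6 of 12 epithelial and 3 of 10 fibroblast and smooth muscle genes. Others were not, and Vwf was at 73.4, 75.3 and 85.5 CPM in those libraries and at 97.9 to 111 CPM in the rest. Cdh5, an endothelial cadherin, was at 1.67, 1.07 and 0 CPM in the Suz12 cKO libraries, against 0.448, 4.28, 0 and 0 CPM in the wild type ones. Sftpc, a surfactant gene, was at 4.53, 9.08 and 0 CPM in the Suz12 cKO libraries, against 0, 10.6, 0 and 0.0412 CPM in the wild type ones. Col1a2, a fibroblast collagen, was at 3.79 CPM in wild type replicate 2, at 0.0316 CPM in Suz12 cKO replicate 1, at 0.335 CPM in replicate 2 and at 0 elsewhere. These 3 markers were chosen after their values were seen. The part of these cells in the levels of the 6 genes was not tested.

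**Figure D5:**
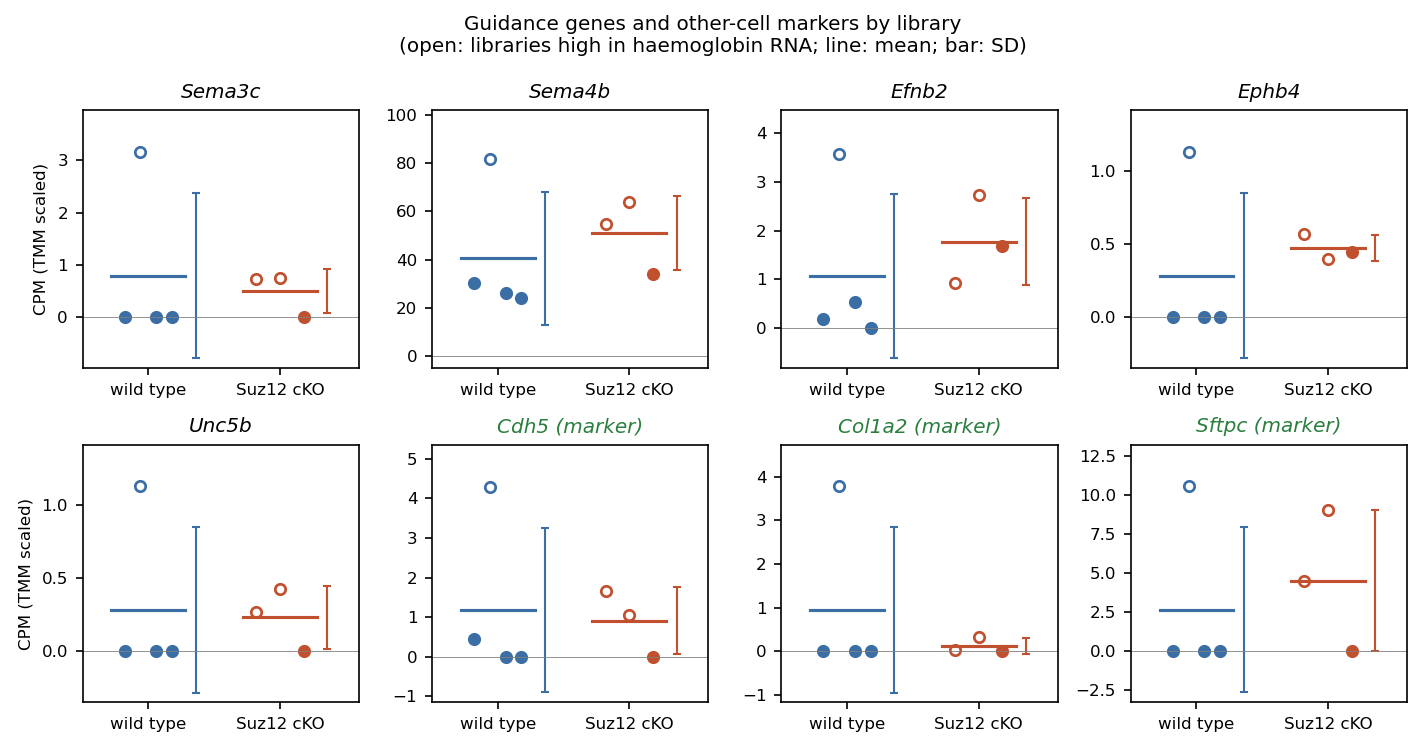
CPM in each library (y axis, one panel per gene) for 5 guidance genes and for the markers Cdh5, Col1a2 and Sftpc (green titles), with lines for means, bars for SD and open points for libraries high in haemoglobin RNA. Wild type replicate 2 is the highest wild type library in every panel.

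Other genes of the guidance pathways were called in both directions, as were all genes (6.28% higher, 4.02% lower). The 104 listed genes included ligands and receptors of other families (such as Cxcl12, Dcc and Neo1), co-receptors, adaptors, kinases and cytoskeletal effectors. Of the 104, 85 were tested, of which 11 rose (12.9%) and 6 fell (7.06%), with a median log2 fold change of 0.14. The increases with the smallest p were in the adaptor gene Nck2 (16.9 ± 0.706 against 1.70 ± 0.177 CPM, adjusted p = 1.3e-04 by edgeR), in Srgap1, a GTPase-activating protein that binds Robo receptors (13.3 ± 5.06 against 1.36 ± 0.489 CPM, 0.00205), in the tyrosine kinase gene Src (51.3 ± 13.4 against 7.47 ± 3.60 CPM, 0.00264), and in Maged1, whose product binds Unc5a (82.1 ± 12.2 against 27.8 ± 7.70 CPM, 0.00297). Decreases among those with the smallest p were in the adhesion molecule gene L1cam (92.2 ± 14.9 against 159 ± 11.8 CPM, 0.00558), the actin regulator gene Vasp (387 ± 17.7 against 516 ± 23.7 CPM, 0.0126) and the GTPase gene Rac1 (577 ± 28 against 714 ± 36.3 CPM, 0.0401). The named decreases were in abundant genes with log2 fold changes between -0.78 and -0.31, and the named increases in genes of lower wild type level with log2 fold changes between 1.56 and 3.31.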

How the data were processed

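The authors deposited raw gene counts from featureCounts and mm10, per the submitters' processing notes, with an exon length for each gene. Not given in the sources used here are the aligner, annotation, strand setting and treatment of multiply mapped reads. Total counts exceed the stated read yield, so floors cover counting error only. Symbols, positions and promoter windows came from RefSeq (GRCm38.p6) by Entrez number, with 25275 of 27179 genes matched.

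Genes passing edgeR's filterByExpr (minimum count 10, minimum total 15) were scaled by TMM and compared with edgeR 4.0.16 (quasi-likelihood, R 4.3.3), genotype as the sole term, with Benjamini-Hochberg adjustment over 14436 genes and calls at an adjusted p under 0.05. SE is the log2 fold change over the square root of F, and 95% intervals use the fit's t quantiles and include the spread between libraries. Values are CPM after TMM scaling. p-values are two-sided and weigh the genotype difference against the spread between these libraries, estimated in part over all genes. Alternatives were RLE scaling, DESeq2 1.42.0, other filters, a replicate block, a haemoglobin term, either side of the haemoglobin split, and each library left out. The fit was tested on simulated data.

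Named members are those called, the 2 per family highest per length in wild type, those absent from wild type with counts in all Suz12 cKO libraries, and those next to the count rule, with the 4 smallest p in each direction among other guidance genes. Of the genes so named, 1 is not reported here. Members and lists were chosen with earlier results of these data known. No protein sequences were used here.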

Additional observations from a re-analysis of the deposited data

Results flagged for a closer look

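Dixon's ratio was taken in each of the 42 members with a count in wild type. It compared the highest and lowest of the 4 wild type libraries with the rest. For normally distributed values, chance sets apart about 1 group in 20. Low counts need not be so distributed, and a member with counts in 1 wild type library alone is always set apart. In 12 members 1 wild type library stood far from the other 3. In 10 of them it was wild type replicate 2, the library high in haemoglobin RNA, and always as the highest. Sema3c (3.17 CPM), Sema3f (0.788), Ephb4 (1.13), Ephb6 (0.0656), Unc5b (1.13) and Robo4 (0.213) had counts in that wild type library alone, and so had to be set apart. Sema4b stood at 81.5 CPM there against 24.2 to 30.2 CPM, Sema4c at 4.89 against 0.619 to 1.02, Efnb2 at 3.58 against 0 to 0.545 and Epha2 at 3.54 against 0.309 to 0.610. Wild type replicate 1 stood apart for Sema4g (0.896 CPM against 0 to 0.0681) and Sema6b (23.0 CPM against 19.9 to 20.2). The cause of these differences was not tested. The share of all tested genes set apart in this way was not counted, so the flags are not read as a trait of the guidance genes. In log2 CPM over all tested genes, wild type replicate 2 correlated with the other wild type libraries at 0.916 to 0.932. Those libraries correlated with each other at 0.953 to 0.969.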

How the results depend on the processing

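The number of members called higher ranged from 5 to 17 when each library was left out, and the number called lower from 0 to 1 (Sema6b). It was 12 with RLE scaling and with no filter on low counts, 17 with DESeq2, 11 with at least 1 CPM in at least 4 libraries, 13 with a haemoglobin term, and 11 and 9 within the libraries low and high in haemoglobin RNA. Of the 12 members called, 12, 12, 12, 11, 10, 9 and 9 were shared with these settings in the order RLE, no filter, DESeq2, stricter filter, haemoglobin term, low and high. Over all genes, 906 higher became 1393 with DESeq2 and 447 to 1515 with a library left out, and 580 lower became 367 and 328 within the low and high libraries and 268 to 885 with a library left out. With the replicate block 9 members, all of them among the 12, and 585 genes were called higher and 278 genes lower; Sema3e, Plxna1 and Efna5 lost their calls (adjusted p = 0.0733, 0.0561 and 0.125). In their deviations from the group means, same-numbered libraries correlated at -0.04, 0.24 and 0.16, and differently numbered ones at -0.256 to 0.117. Whether the replicate numbers stand for a shared factor is not settled by these values. Direction was checked only for the called members and for those named for their level per length in wild type. Other tested members were not checked, so the changes listed here are not a full list. No called member changed direction under any of these alternatives. Directions that changed were of members that were not called: Epha1 (0.0092 with RLE, 0.010 with DESeq2, 0.012 with the stricter filter, 0.26 with the replicate block, 0.10 with the haemoglobin term, 0.45 within the high libraries, -0.13 to 0.24 with a library left out), Efnb1 (-0.21 within the low libraries, -0.0044 to 0.25 left out), Nrp2 (-0.020 within the high libraries, -0.079 to 0.073 left out), Sema4a (-0.051 to 0.069 left out), Sema4b (-0.029 with the haemoglobin term, -0.45 within the high libraries), Slit1 (-0.0066 with the replicate block, -0.014 to 0.50 left out) and Unc5b (1.43 with the replicate block, -1.07 to 0.28 left out), all as log2 fold changes. The cause was not tested. At the depth of members under 1 CPM intervals were wide (Ntn1, -2.54 to 4.94).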
